A study of Mus musculus with 4 samples.

Results

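Cytosolic ribosomal proteins are the protein subunits of the ribosome that translates nuclear-encoded mRNAs, and 77 of the 23746 gene rows of the tables belong to them. They were chosen by symbol, as Rpl or Rps followed by a number with at most a closing a, x or y, together with Rplp0, Rplp1, Rplp2 and Rpsa, and rows named for pseudogenes and for the Rps6 kinases were left out. The choice gave 46 genes of the large subunit and 31 genes of the small subunit, and the rule reads symbols, not levels. RNA of 4 primary mammary tumors of female mice was compared. Tumors 26043 and 26044 are triple-mutant, with the genotype WapCreC;Rank;Brca1;p53, and tumors 26048 and 26050 are double-mutant, with the genotype WapCreC;Brca1;p53, which makes 2 tumors of each. The WapCreC transgene of both genotypes, a Cre recombinase active in luminal and basal mammary epithelium, deletes floxed Brca1 and floxed p53, and only the triple-mutant females also lose Rank (Tnfrsf11a), the receptor of RANKL. Stroma and blood cells in these bulk tumors keep the floxed alleles, and neither the age of these females nor the grade of each sequenced tumor was given in the sources used here, although the study describes tumor grade as differing between the genotypes. The labels number the tumors without saying whether they came from different females, so the p-values measure only the spread between these samples.

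A ribosome holds a single copy of nearly every ribosomal protein, so their genes are transcribed at high and similar levels in growing cells, and surplus subunits are degraded. Their mRNAs typically start with a run of pyrimidines, the 5′ terminal oligopyrimidine or TOP tract, through which mTORC1 and LARP1 control how much of the mRNA is translated. Free Rpl5 and Rpl11, bound to 5S rRNA, restrain Mdm2 and so link a failing ribosome assembly to p53, a gene that both genotypes studied here were made to lose in the epithelium.

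The values are FPKM, fragments per kilobase of transcript scaled to the total of mapped fragments. They are corrected for length, but comparison between genes is approximate, since the order of the highest genes depended on the value used, as given below. Tnfrsf11a was at 2.07 and 0.962 FPKM in the triple-mutant tumors and at 10.6 and 11.9 FPKM in the double-mutant tumors, the order its genotype labels give. Brca1 was at 3.26 and 3.28 FPKM against 3.84 and 5.69 FPKM, and Trp53 at 15.7 and 87.8 FPKM against 150 and 103 FPKM. Reads outside the deleted exons count toward these values, so Brca1 and Trp53 do not check the deletions. Basal epithelial markers (8 genes, Krt5, Krt14 and Trp63 among them) summed to 1315 to 1751 FPKM in the triple-mutant tumors and to 47.6 to 70.4 FPKM in the double-mutant tumors, and 7 of the 8 did not overlap between genotypes. The 8 fibroblast markers summed to 123 to 206 FPKM against 439 to 908 FPKM, with 5 higher in both double-mutant tumors and 1 in both triple-mutant tumors. The 9 luminal markers (Krt8, Krt18 and Elf5 among them) summed to 556 FPKM in tumor 26044 and to 3158 to 4754 FPKM in the other 3 tumors, and 6 of the 9 were higher in both double-mutant tumors and 1 in both triple-mutant tumors. Macrophage markers (7 genes) summed to 322 to 606 FPKM against 673 to 987 FPKM, while the defining markers of T cells and B cells were near 0, with 5 or 6 of the 6 T cell genes under 1 FPKM in every tumor. The 5 adipocyte markers summed to 1390 FPKM in tumor 26048 and to 7.58 to 261 FPKM in the other 3 tumors. For comparison, 21.3% of all genes tested were higher in both triple-mutant tumors and 22.9% in both double-mutant tumors. Marker levels therefore differed with genotype and with tumor. The part of cell composition in these and in all other differences described here was not tested. In bulk tissue, fewer cells of a type and less RNA per cell cannot be told apart.

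The TOP tract is the feature the family is best known for, so a few sequences around annotated starts are given first. RefSeq promoters of build GRCm38.p6 matched 57 of the 77 genes, with 67 transcription starts. From 20 bases before to 20 bases after the start, a run of at least 8 consecutive C or T letters was present at 29 of these 67 starts (43.3%) and at 5272 of all 32851 starts in the table (16.0%). The windows below belong to Rpl15, Rps15a, Rplp2, Rps24 and Rpl4, which have such a run, and to Rps15, Rplp0, Rps7 and Rpl26, 4 genes at the ends of the genotype comparison whose annotated starts lack one. Rps12 and Rps26, not printed, and Rpl4 also lie at the ends of that comparison and have a run. The annotated start is the 21st letter and the run is in capitals. A run anywhere in the window was counted. It covers the annotated start in Rpl15, Rplp2 and Rps24, and it ends before the start in Rps15a and Rpl4, so there it lies outside the annotated mRNA.
Rpl15, chr14:18270967-18271006, minus strand: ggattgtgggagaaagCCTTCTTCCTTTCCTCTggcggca
Rps15a, chr7:118116128-118116167, minus strand: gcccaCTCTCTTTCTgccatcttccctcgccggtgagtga
Rplp2, chr7:141447631-141447670, plus strand: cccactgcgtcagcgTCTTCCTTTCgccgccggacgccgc
Rps24, chr14:24490658-24490697, plus strand: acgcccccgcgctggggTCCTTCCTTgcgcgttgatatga
Rpl4, chr9:64173367-64173406, plus strand: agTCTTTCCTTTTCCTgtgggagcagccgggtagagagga
Rps15, chr10:80292411-80292450, plus strand: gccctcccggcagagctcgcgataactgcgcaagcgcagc
Rplp0, chr5:115559447-115559486, plus strand: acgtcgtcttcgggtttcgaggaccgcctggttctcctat
Rps7, chr12:28635934-28635973, minus strand: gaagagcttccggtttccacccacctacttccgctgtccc
Rpl26, chr11:68901546-68901585, plus strand: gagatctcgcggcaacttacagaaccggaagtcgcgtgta

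Over the longer promoter, 250 bases before to 50 after the start and both strands, GGAAGT, the core letters of ETS factor motifs, occurred at 32 of the 67 starts (47.8%, against 23.8% of all starts). GGGCGG, the GC box, occurred at 41 (61.2% against 35.7%), GATGGC, the core of YY1 motifs, at 17 (25.4% against 14.1%) and TATAAA at 6 (8.96% against 13.6%). The 28 genes with a pyrimidine run at a start had a median genotype difference of 0.15 on the log2 scale, and the 29 genes without one had a median of 0.23. These are letter matches in annotated windows, and no binding or start site was measured here.

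Ribosomal protein genes held between 22.8% and 30.5% of all summed FPKM, and the tumor that stood apart was the triple-mutant tumor 26044. Its 77 genes summed to 243141 FPKM, against 163751 FPKM in the other triple-mutant tumor 26043 and 161927 and 183796 FPKM in the double-mutant tumors 26048 and 26050. As shares of all FPKM these were 30.5%, 23.7%, 22.8% and 24.8%, so tumor 26044 lay above the other 3 tumors while tumor 26043 lay between the double-mutant tumors. Of the 77 genes, 61 were highest in tumor 26044, 12 in tumor 26050, Rplp0 and Rpl21 in tumor 26043, and Rps7 and Rpl4 in tumor 26048. Within the triple-mutant genotype, tumor 26044 exceeded tumor 26043 in 71 of 77 genes, with a median ratio of 1.43 (0.52 on the log2 scale of FPKM + 1). Over all other genes tested the same median was -0.17. In 138 other genes whose longest coding transcript has at most 800 bases and whose mean is at least 50 FPKM, it was -0.02, and in 1562 longer genes above the same level it was -0.12. Mitochondrial ribosomal protein genes, 76 in number and the nearest family in function, had a median of -0.07 in that pair. Within the double-mutant genotype tumor 26050 exceeded tumor 26048 in 66 of 77 genes, with a median log2 difference of 0.19, and the mitochondrial family had a median of 0.29 there. Luminal markers were lowest in tumor 26044, as given above, and whether they bear on its ribosomal protein level was not tested.

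**Figure D1:**
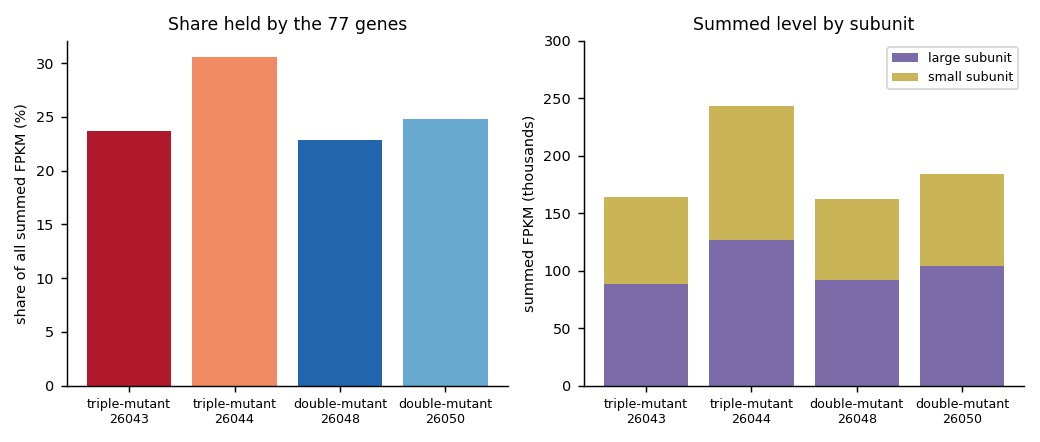
Left, the share of all summed FPKM held by the 77 ribosomal protein genes in each tumor (bars, in percent); right, their summed FPKM, drawn in units of 1000, divided into large and small subunit genes. Tumor 26044 stands highest at 30.5%, and the other 3 tumors lie between 22.8% and 24.8%.

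None of the 77 genes passed the test between genotypes, and their median genotype difference was smaller than their median difference between the triple-mutant tumors. All 77 were above 1 FPKM in every tumor and entered the limma fit of 12752 genes on log2(FPKM + 1). It called 0 genes of any kind at an adjusted p under 0.05 (0% of the genes tested), while 1252 genes, 9.82% of those tested, had an unadjusted p under 0.05, among them 0 of the 77. At an equal median of the 77 genes, a scaling added after the data were seen, it called 108 genes, and again 0 of the 77. The smallest adjusted p of a ribosomal protein gene as deposited was 0.532, for Rps7. With 2 tumors against 2, an exact permutation test of a single gene cannot go below p = 0.333. In 66 of the 77 genes the log2 difference between tumors 26044 and 26043 was larger in size than the genotype difference. The share of all tested genes for which this holds was not computed. A difference between single tumors also varies more than a difference between means of 2 tumors, so the count is no trait of these genes.

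In 12 of 77 genes (15.6%) both triple-mutant tumors lay above both double-mutant tumors, where 21.3% of all tested genes did, and in 1 of 77 (1.3%), Rps7, both double-mutant tumors lay above, where 22.9% of all tested genes did. Among the 12 were Rps15, Rps21, Rps12, Rpl36, Rplp0, Rpl11, Rpl24, Rpsa, Rps10, Rpl37 and Rps28. The other 64 genes overlapped between genotypes. The counts turned on single tumors: without tumor 26044 they became 13 higher and 37 lower in the remaining triple-mutant tumor (16.9% and 48.1%, against 40.2% and 31.9% of all tested genes). Without tumor 26043 they became 62 and 2 (80.5% and 2.6%, against 33.2% and 45.1%). They also turned on the scale, and the share higher in the triple-mutant tumors, below that of all tested genes as deposited, was above it under 4 other scales. On the TPM scale the counts were 21 and 5 (27.3% and 6.49%, against 19.4% and 21.5% of all tested genes). After quantile normalization they were 28 and 5 (36.4% and 6.49%, against 19.9% and 25.6%). With the midpoint of the deposited confidence interval as the value they were 25 and 2 (32.5% and 2.6%, against 23% and 19.5%). When the tumors were scaled to an equal median of these 77 genes they were 18 and 13 (23.4% and 16.9%, against 13.1% and 18.4%). At an equal median of all tested genes they were 7 and 1 (9.09% and 1.3%, against 19.4% and 25.7%), so there the share stayed below.

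The median genotype difference of the 77 genes was 0.18 on the log2 scale, triple-mutant minus double-mutant, beside -0.02 for all tested genes. It was -0.08 without tumor 26044, 0.40 without tumor 26043, 0.0826 without tumor 26048 and 0.0576 at an equal median of the 77 genes. The difference was positive in 57 genes and negative in 20, and in 69 of 77 (89.6%) it was under 0.5 in size, compared with 60.9% of all tested genes. Most of the 77 genes stand at high levels, and other genes of like level were not compared. The large subunit had a median of 0.18 and the small subunit of 0.20. The 76 mitochondrial ribosomal protein genes had a median of -0.01.

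**Figure D2:**
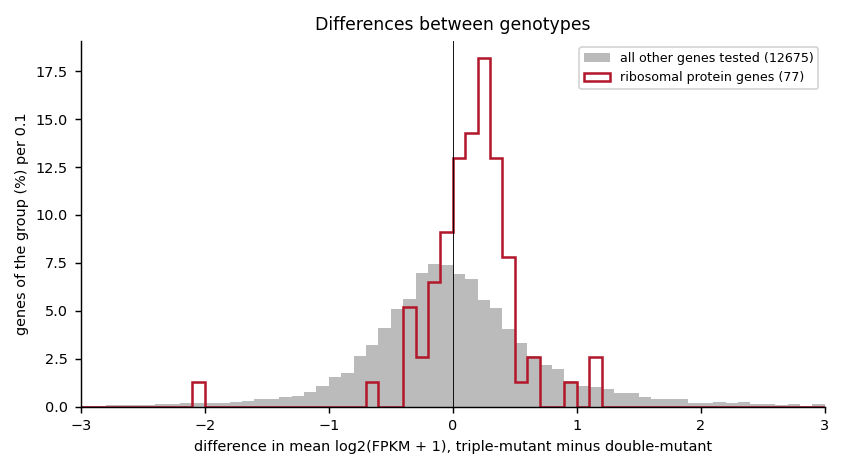
Difference in mean log2(FPKM + 1), triple-mutant minus double-mutant, as the percentage of genes per bin of 0.1, for the 77 ribosomal protein genes (red line) and all other genes tested (grey). The ribosomal protein genes form a narrow peak around their median of 0.18, with Rpl26 alone at -2.07 and Rps15 and Rps21 above 1.

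The order of the genes by level was much alike in the tumors. Across the 77 genes, Spearman's rho between tumors ranged from 0.89 to 0.95, as a description, since genes are not replicates and all were measured in the same libraries. Levels were above 1000 FPKM in every tumor for 60 genes, and among the 100 genes of highest FPKM of a tumor 56 to 64 were ribosomal protein genes. In 66 of 77 genes the highest tumor was less than 2 times the lowest, and the median of this ratio was 1.61. The same count over all tested genes was not computed, so it is not shown to be a trait of this family. Rps15a, a small subunit protein, was the steadiest at 79.9, 86.3, 74.7 and 85.5 FPKM in tumors 26043, 26044, 26048 and 26050.

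**Figure D3:**
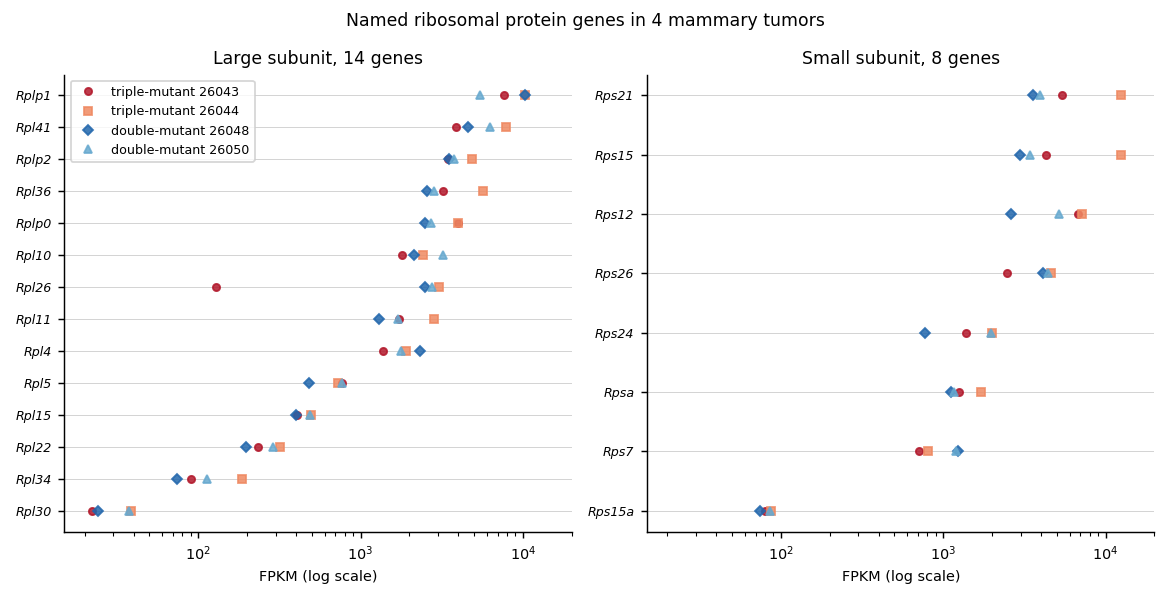
FPKM (log scale) in the 4 tumors of the 22 ribosomal protein genes described by name, large subunit left and small subunit right, ordered by mean level; each symbol is 1 tumor. Rps15 and Rps21 are far higher in tumor 26044 (squares) than elsewhere, Rpl26 in tumor 26043 lies far to the left at 128 FPKM, and Rpl30, Rpl34 and Rps15a lie below the rest.

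At the top of the order stood Rplp1, Rps21, Rps15, Rpl41 and Rps12. The top depended on the value used: by interval midpoints these 5 ranked 5, 27, 10, 6 and 9 of 77, Rpl38, Rps27 and Rpl35 came first, and the ratio of FPKM to midpoint, averaged over the tumors, ran from 0.699 to 3.91. The 5 lowest genes were the same by both values. Rplp1, an acidic protein of the stalk that recruits the translation factors, was at 7700 and 10337 FPKM in the triple-mutant tumors and at 10257 and 5444 FPKM in the double-mutant tumors, which overlapped entirely. The double-mutant tumors differed more for Rplp1 than the genotypes did. Rpl41, the smallest protein of the ribosome, was at 3884 and 7847 FPKM against 4591 and 6256 FPKM and overlapped as well. At the bottom stood Rpl30, Rps15a, Rpl34, Rpl22 and Rpl15, and for Rpl30 and Rpl34 the low level was shared with a second row at the same locus, described below. Rpl22, which loss-of-function studies link to T cell development and lymphoma, was at 232 and 317 FPKM against 196 and 289 FPKM. Rpl15 was at 409 and 498 FPKM against 398 and 486 FPKM, and both genes overlapped between genotypes.

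Among the genes higher in the triple-mutant tumors, Rps15 had the largest difference. Rps15, a protein of the small subunit head near the decoding site, was at 4281 and 12502 FPKM in the triple-mutant tumors and at 2984 and 3449 FPKM in the double-mutant tumors. The triple-mutant tumors lay above both double-mutant tumors, but most of the distance came from tumor 26044. The means were 8391 ± 5813 FPKM (SD, n = 2) and 3217 ± 329 FPKM (SD, n = 2), a log2 difference of 1.19 with a standard error of 0.61 (limma adjusted p = 0.578). Without tumor 26044 the log2 difference was 0.42. The 50 other tested genes that start within 0.5 Mb of Rps15 on chromosome 10 had a median log2 genotype difference of 0.84, the highest neighbourhood median of the 77 genes, and a median of 0.58 between tumors 26044 and 26043. Whether a property of the region bears on Rps15 was not tested.

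Rps21, a small protein of the 40S subunit needed for processing of its rRNA, showed the same picture with 5372 and 12456 FPKM against 3566 and 3952 FPKM. Its log2 difference was 1.12 with a standard error of 0.53 (limma adjusted p = 0.557), and 0.52 without tumor 26044. Rps12 was at 6773 and 7179 FPKM against 2608 and 5163 FPKM, so here the triple-mutant tumors were close to each other and the double-mutant tumors were apart. Its log2 difference of 0.93 (standard error 0.47, limma adjusted p = 0.575) was 0.43 without tumor 26048. Rps12, Rps15 and Rps21 all belong to the small subunit and enter its summed level. The summed FPKM of large subunit genes was 1.19 and 1.08 times that of small subunit genes in the triple-mutant tumors and 1.32 and 1.30 times in the double-mutant tumors. Without these 3 genes, which were chosen after their values were seen, the ratios were 1.52 and 1.497 against 1.51 and 1.54 and overlapped. The 3 have the largest differences toward the triple-mutant genotype, and no large subunit genes were left out. The step was therefore bound to narrow the gap, and it does not show its source. Rows with a pseudogene's name over Rpl26, Rpl30 and Rpl34, described below, are not in these sums. They added up to 7901 and 7506 FPKM in the triple-mutant tumors and to 3809 and 5813 FPKM in the double-mutant tumors.

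Rplp0, the stalk base on which Rplp1 and Rplp2 assemble and a common reference gene in qPCR, had the smallest spread within genotypes of the genes just named. It was at 4011 and 3997 FPKM in the triple-mutant tumors and at 2489 and 2730 FPKM in the double-mutant tumors, without overlap. The log2 difference was 0.62 with a standard error of 0.32 (limma adjusted p = 0.577), and it stayed between 0.50 and 0.69 under the alternatives run. Rplp2, the partner of Rplp1, was at 3453 and 4881 FPKM against 3509 and 3764 FPKM and overlapped. The 4 genes of the stalk, with Rpl12, thus had a median difference of 0.22. Of them 1 (25%) was higher in both triple-mutant tumors, near the 21.3% of all tested genes. Rpl36, a large subunit protein, was at 3214 and 5646 FPKM against 2554 and 2847 FPKM, a log2 difference of 0.66 (limma adjusted p = 0.638) that was 0.25 without tumor 26044.

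Of the genes of the 5S particle, Rpl11 was at 1732 and 2852 FPKM in the triple-mutant tumors and at 1292 and 1706 FPKM in the double-mutant tumors, which left a narrow gap between tumors 26043 and 26050. Its log2 difference was 0.58 with a standard error of 0.40 (limma adjusted p = 0.654). Rpl5 was at 765 and 730 FPKM against 478 and 770 FPKM, so the genotypes overlapped and only tumor 26048 was low. Rpsa, the 40S protein first described as a laminin receptor, was at 1251 and 1718 FPKM against 1113 and 1163 FPKM, a log2 difference of 0.37 (limma adjusted p = 0.724). In the group at the mRNA exit side, Rpsa and Rps28 did not overlap and Rps14 and Rps26 did. The 5 genes of the mRNA channel and decoding site had 1 non-overlapping gene, Rps15, and a median of 0.22. None of the 8 genes around the exit tunnel was free of overlap, with a median of -0.06. The share higher in both triple-mutant tumors was 50% at the exit side and 20% at the channel and decoding site. Around the exit tunnel it was 0% in either direction, where all tested genes were at 21.3% and 22.9%.

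Among the genes lower in the triple-mutant tumors only Rps7 did not overlap between genotypes. Rps7, a 40S assembly protein that also binds Mdm2, was at 709 and 811 FPKM in the triple-mutant tumors and at 1241 and 1203 FPKM in the double-mutant tumors. The tumors of each genotype were close to each other, with means of 760 ± 72.2 FPKM and 1222 ± 26.7 FPKM (SD, n = 2). The log2 difference was -0.69 with a standard error of 0.29 (limma adjusted p = 0.532), and it was -0.49 with the interval midpoint as the value. Rps26, Rpl4 and Rpl10 came next with log2 differences of -0.34, -0.33 and -0.31. Rps26, which contacts the mRNA upstream of the start codon, was at 2470 and 4591 FPKM against 4093 and 4430 FPKM, and only tumor 26043 was low. Rpl4, which lines the exit tunnel, was at 1379 and 1906 FPKM against 2339 and 1775 FPKM. Rpl10, the X-linked protein added last to the 60S subunit, was at 1811 and 2436 FPKM against 2124 and 3199 FPKM. Rps24 was at 1386 and 1988 FPKM against 768 and 1956 FPKM, and it had, with Rplp1 and Rps12, the largest differences within the double-mutant genotype. Of 17 genes mutated in Diamond-Blackfan anemia, an inherited failure of red cell formation, 3 (Rpl11, Rps10 and Rps28, 17.6% against 21.3% of all tested genes) lay higher in both triple-mutant tumors and Rps7 lower, and their median was 0.23.

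Rpl26 had the lowest genotype difference of the 77 genes, -2.07 on the log2 scale, and it rested on 1 tumor and on a second row at the same locus. Rpl26, a large subunit protein that also binds the p53 mRNA, was at 128 FPKM in tumor 26043, at 3045 FPKM in tumor 26044, and at 2504 and 2759 FPKM in the double-mutant tumors (standard error 1.54, limma adjusted p = 0.676). Only tumor 26043 was low, and without it the log2 difference was 0.21. A row named Gm15772 covers 99.2% of the Rpl26 interval on chromosome 11. It was at 2383, 562, 36.8 and 557 FPKM in tumors 26043, 26044, 26048 and 26050, high where Rpl26 was low. GENCODE M21 and RefSeq place the pseudogene Gm15772 on chromosome 5. The sum of both rows was 2511 and 3607 FPKM against 2541 and 3315 FPKM, a log2 difference of 0.05, and the genotypes overlapped. Sums of FPKM of rows with different model lengths are approximate.

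The same held for the levels of Rpl30 and Rpl34. Rpl30, a large subunit protein that represses splicing of its own transcript in yeast, was at 22.2 and 38.6 FPKM against 24.0 and 37.5 FPKM, while the row Gm12191 over the same interval on chromosome 15 was at 3232 and 2795 FPKM against 1928 and 2692 FPKM. Between 98.6% and 99.3% of the summed FPKM of the locus stood under the pseudogene's name, and the sum was higher in both triple-mutant tumors, by 0.40 on the log2 scale. Rpl34 was at 89.6 and 186 FPKM against 74.2 and 114 FPKM, and Rpl34-ps1, over its interval on chromosome 3, was at 2286 and 4149 FPKM against 1845 and 2564 FPKM. Here 95.7% to 96.2% of the sum stood under the pseudogene's name. The references place Gm12191 on chromosome 11 and Rpl34-ps1 on chromosome 6. With the sums in place of the 3 genes, 13 genes in place of 12 lay higher in both triple-mutant tumors, 1 lay lower, and the median difference was 0.19.

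**Figure D4:**
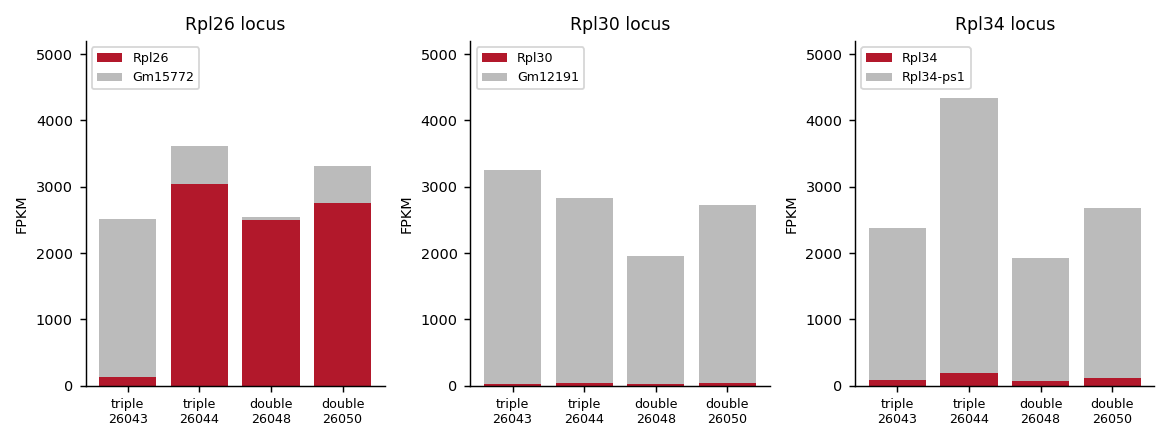
FPKM in each tumor of Rpl26, Rpl30 and Rpl34 (red) with the row of a pseudogene's name that covers the same interval (grey) stacked on it. The height of the Rpl26 bar is 2511 to 3607 FPKM in all 4 tumors while its red part falls to 128 FPKM in tumor 26043; at Rpl30 and Rpl34 nearly the whole bar is grey in every tumor.

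A read of 50 bases cannot tell these genes from their pseudogenes where the sequence is identical. The rows with a pseudogene's name lie at the loci of the genes themselves, however. Whether shared sequence bears on the division of FPKM between the rows was not tested. Of the 386 distinct 50-base windows in the Rpl26 coding sequence, 286 (74.1%) occur letter for letter in the annotated Gm15772 transcript. The counts were 246 of 296 (83.1%) for Rpl30 in Gm12191 and 218 of 304 (71.7%) for Rpl34 in Rpl34-ps1. One such window of each gene is given, all of it in 1 exon and all 50 letters shared with the pseudogene, on GRCm38.
Rpl26, chr11:68903197-68903246, plus strand: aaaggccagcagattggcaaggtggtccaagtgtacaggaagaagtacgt
Rpl30, chr15:34441296-34441345, minus strand: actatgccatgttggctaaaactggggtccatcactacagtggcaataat
Rpl34, chr3:130728791-130728840, minus strand: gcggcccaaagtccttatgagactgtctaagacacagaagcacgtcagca

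Over all 77 genes a median of 90.3% of the coding windows occurred in the transcript of at least 1 other gene. The share ranged from 0% to 100%, and it was at least 50% in 66 genes. The share was 43.3% for Rps15, 45.5% for Rps21, 60.3% for Rplp0, 84.8% for Rps12 and 95.3% for Rps7, and how the authors' alignment divided such reads among copies was not given in the sources used here. The levels of genes with high shares are therefore uncertain.

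Ribosomal proteins and paralogs outside the symbol rule were described in the same way. Fau, whose product yields Rps30 after cleavage, was at 2371 and 3677 FPKM in the triple-mutant tumors against 1834 and 2430 FPKM, and Gnb2l1 (Rack1), a 40S scaffold for kinases, at 1486 and 2567 FPKM against 1466 and 1705 FPKM, and both overlapped. Rps27l, a paralog of Rps27 known as a p53 target, was at 322 and 368 FPKM against 623 and 563 FPKM, a log2 difference of -0.78 (standard error 0.27, limma adjusted p = 0.494). Its parent Rps27 was at 3684 and 5415 FPKM against 3213 and 3882 FPKM. Rpl36al was at 672 and 504 FPKM against 788 and 1188 FPKM (log2 difference -0.73, limma adjusted p = 0.569), and Rpl22l1, which can take the place of Rpl22, at 87.4 and 94.6 FPKM against 115 and 103 FPKM. Rsl24d1, a biogenesis factor related to Rpl24, was at 62.8 and 63.6 FPKM against 66.5 and 74.8 FPKM. Both double-mutant tumors lay higher for Rps27l, Rpl36al, Rpl22l1 and Rsl24d1, and in all for 5 of the 9 genes of the list that passed the filter (55.6%, against 22.9% of all tested genes), and in 3 of the 9 with interval midpoints. Rpl7l1 overlapped, at 41.7 and 58.6 FPKM against 45.9 and 49.3 FPKM. Rpl39l did too, at 0.301 and 2.0 FPKM against 0.945 and 1.21 FPKM. The muscle paralog Rpl3l was under 1 FPKM in every tumor and the testis paralog Rpl10l was listed at 0.

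The genes that build and serve the ribosome lay more often higher in both double-mutant tumors than in both triple-mutant tumors, and none of them passed the test. Of 84 ribosome biogenesis genes, 47 (56%) lay higher in both double-mutant tumors and 4 (4.76%) in both triple-mutant tumors, where the shares of all tested genes were 22.9% and 21.3%. Their median log2 difference was -0.37, and -0.23 without tumor 26050. In this list Ddx10, a nucleolar helicase, was at 9.66 and 8.97 FPKM against 12.05 and 279 FPKM, Rpf2, which loads the 5S particle, at 20.3 and 288 FPKM against 9.13 and 22.8 FPKM, and Pwp2, of the small subunit processome, at 19.2 and 68.5 FPKM against 13.8 and 15.9 FPKM. In each of these 3 genes 1 tumor stood far above the rest. Of 16 genes of RNA polymerase I and rDNA transcription, 9 (56.2%) lay higher in both double-mutant tumors and 1 in both triple-mutant tumors, with a median of -0.30 that was -0.18 without tumor 26044 and -0.46 without tumor 26048. The polymerase subunit Polr1b was at 10.9 and 11.0 FPKM against 19.4 and 20.3 FPKM (log2 difference -0.80, limma adjusted p = 0.488), and the promoter factors Taf1a and Taf1c had log2 differences of -0.96 and -0.60. The medians of both lists stayed negative under every scaling run and without each tumor.

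Initiation factors had 17 of 36 genes (47.2%) higher in both double-mutant tumors and 3 (8.33%) in both triple-mutant tumors, against 22.9% and 21.3% of all tested genes, with a median of -0.26. Without tumor 26050 the median was -0.0716, with 11 genes (30.6%) higher in the triple-mutant tumors, against 30.8% of all tested genes. Without tumor 26048 the median was -0.49. The largest differences were in Eif3j (-1.27), Eif1ax (-1.09) and Eif3l (-0.997). Of 10 elongation factors 3 lay higher in the double-mutant and 1 in the triple-mutant tumors, with a median of -0.21 that was 0.09 without tumor 26043 and 0.03 without tumor 26050, and the largest differences were in Eef1e1 (-0.88), Eefsec (0.77) and Eef1b2 (-0.60). Of 6 termination and recycling factors 3 lay higher in the double-mutant tumors, among them the ribosome recycling ATPase Abce1 (-0.96) and Gspt1 (-0.42), and Pelo (0.45) lay higher in the triple-mutant tumors. Chaperones and importers of ribosomal proteins had 10 of 20 genes (50%) higher in both double-mutant tumors and 2 in both triple-mutant tumors, with Heatr3 at -0.86, Nap1l1 at -0.76 and Ipo7 at -0.71.

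Other transcripts known to carry a TOP tract had a median on the other side of 0 from the ribosomal protein genes. The lists overlap, so they are not independent groups. Eef1b2, Pabpc1 and Eif3e, for example, count here and also among the elongation or initiation factors. Of 27 such genes, 12 (44.4%) lay higher in both double-mutant tumors and 1 (3.7%) in both triple-mutant tumors. All tested genes were at 22.9% and 21.3%. The median of the 27 genes was -0.24, and it was 0.03 without tumor 26050 and -0.0122 without tumor 26043. Without tumor 26043, 9 of them (33.3%) lay higher in the remaining triple-mutant tumor, against 33.2% of all tested genes. Gas5, a host of small nucleolar RNAs, was at 37.2 and 23.6 FPKM against 58.5 and 83.3 FPKM (log2 difference -1.21, limma adjusted p = 0.476), and Snhg1, another host gene, at 110 and 161 FPKM against 192 and 283 FPKM. The 22 genes of the mTORC1 arm and of TOP mRNA translation had 5 genes on each side and a median of 0.02. That is 22.7% on each side, near the 21.3% and 22.9% of all tested genes. Mycn, a Myc family factor that drives ribosome production, was at 8.40 and 12.6 FPKM in the triple-mutant tumors and at 0.154 and 0.114 FPKM in the double-mutant tumors. Its log2 difference of 3.32 had a standard error of 0.35 (limma adjusted p = 0.143), so it was not called. Mycn passed only at an equal median of the 77 genes (limma adjusted p = 0.0190). That scaling was added after the data were seen, rests on the 77 genes themselves and called 108 genes, so it lends Mycn no support. The translation repressor Pdcd4 (0.98) and the mRNA binding protein Larp4 (-0.80) followed. Of the 6 sensors of unassembled ribosomal proteins, Cdkn2a, which encodes the Mdm2 inhibitor Arf, was at 291 and 153 FPKM against 101 and 75.2 FPKM, and Mdm4 at 4.53 and 3.23 FPKM against 12.3 and 6.81 FPKM. Trp53, given above, belongs to the same list and is one of the targeted genes.

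**Figure D5:**
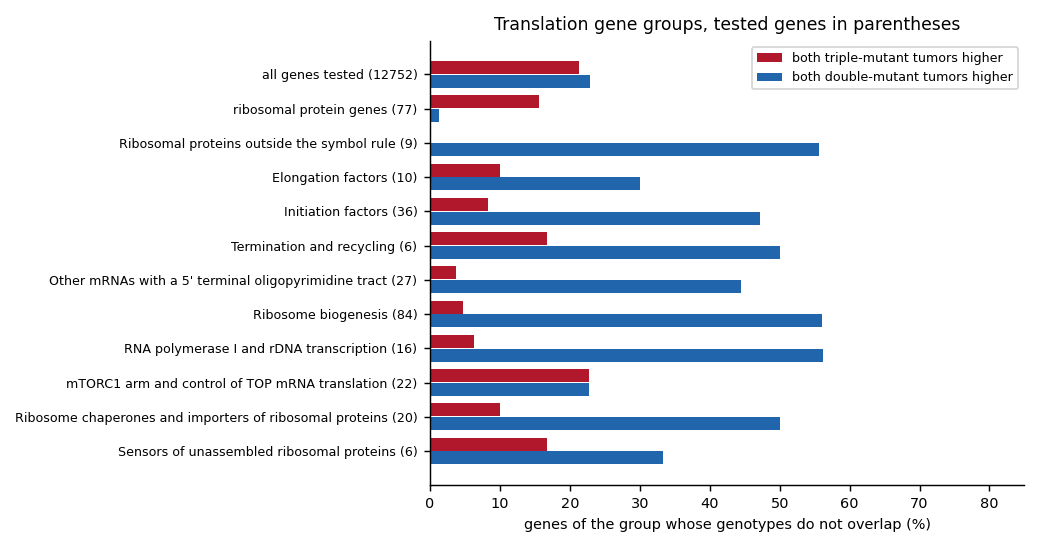
Percentage of genes in each group in which both triple-mutant tumors lie above both double-mutant tumors (red) or below them (blue), with the number of genes tested in parentheses. Ribosomal protein genes are at 15.6% and 1.3%, all genes tested at 21.3% and 22.9%, and ribosome biogenesis genes at 4.76% and 56%. Some genes are counted in several groups.

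The deposited tables also hold a confidence interval for each value. Its half-width was a median of 1.52% to 1.81% of its midpoint in the 77 genes, but 64 to 69 of the 77 values of a tumor lay outside their own interval, most of them above it. Tumor 26044 held the highest share also by interval midpoints, at 25.6% against 19.9%, 19.5% and 21.0% in tumors 26043, 26048 and 26050. The interval therefore does not give the error of the FPKM, and the spread between tumors was used instead.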

How the data were processed

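PolyA RNA of the 4 tumors was sequenced from strand-specific libraries as 50-bp single-end reads. The authors aligned the reads with Tophat (2.0.10) and bowtie (0.12.9) and estimated FPKM per gene with Cufflinks (2.1.1), 1 deposited table per tumor, with the bounds of its confidence interval in the same unit. The submitters' processing notes name build mm10, the annotation release is not given in the sources used here, and the authors' HTSeq counts and DESeq2 test were not analysed here. Depth per tumor is unknown, because whole reads could not be read back from the FPKM.

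The tables were joined on symbol and position, with starts given counted from 1. Genes that reached 1 FPKM in 2 or more tumors (12752) were fitted as log2(FPKM + 1), triple-mutant minus double-mutant, with limma 3.58.1 in R 4.3.3 (lmFit, eBayes with a trend, two-sided), with Benjamini-Hochberg adjustment over all of them and a threshold of 0.05. The fold scale understates changes of low genes. The fit was tested on simulated data. The simulation gave all genes an equal spread, unlike these tumors, so it says nothing about the power of the fit here. Python 3.11.15, pandas 2.3.3 and numpy 2.4.6 did the rest. Windows of 50 bases came from the longest coding transcript of each gene in GENCODE M21.

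Named ribosomal protein genes were the 5 with the largest log2 difference in each direction, the 5 highest and 5 lowest in mean FPKM, the 3 with the largest difference within each genotype, and Rpl5, Rpl11, Rpsa, Rplp0, Rplp1 and Rplp2; in other lists the 3 largest differences; and the targeted genes. The members and lists were chosen with earlier results of these data known. Alternatives were a pseudocount of 0.1, no filter, the TPM scale, quantile normalization, interval midpoints, no trend, leaving out small RNA and predicted genes, an equal median of tested genes and each tumor left out. Summing overlapping rows and an equal median of the ribosomal protein genes were added after seeing the data. Results for a few genes are not reported here.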

Additional observations from a re-analysis of the deposited data

How the results depend on the processing

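No ribosomal protein gene was called by limma under the alternatives run for that count (the scalings, the filter and pseudocount, the trend, the genes left out, the summed rows and each tumor left out). The paper describes the females of the genotypes as littermates, but the labels do not say which tumors belong together, so no paired analysis was possible. Over all genes limma called 6 genes after quantile normalization (Mir3074-2, Mir25, Mir27a, Mir680-2, Snord23 and Id4), 1 with interval midpoints (Mir3074-2) and 5 without the trend (the 6 but Id4), named here after their values were seen, 108 at an equal median of the 77 genes, Mycn among them, and 0 under the others; genes at an unadjusted p under 0.05 numbered 509 to 2217 with a tumor left out. Genes higher in both triple-mutant tumors numbered 21 on the TPM scale, 28 after quantile normalization, 25 with midpoints and 13 to 62 with a tumor left out (37 without 26050), and those higher in both double-mutant tumors 5, 5, 2 and 2 to 37 (13 without 26048), and 13 at an equal median of the 77 genes. The median difference ranged from -0.08 to 0.40 with a tumor left out, was 0.0576 at an equal median of the 77 genes, and lay between 0.15 and 0.22 under the others. Of 242 values of 22 named genes under alternatives, 219 kept their sign. Part of this was fixed in advance, so the count is no measure of robustness. Without the filter the differences were unchanged, and a pseudocount of 0.1 hardly moved such high genes. Summed rows changed only Rpl26, Rpl30 and Rpl34. Rplp1, with no difference left after quantile normalization, was counted as kept. With a tumor left out the range was -4.34 to 0.21 for Rpl26, -0.42 to 0.35 for Rpl30, -0.79 to 0.11 for Rps26, -0.0432 to 0.64 for Rpl5, -0.20 to 0.71 for Rplp1, -0.0739 to 0.43 for Rplp2, -0.11 to 0.18 for Rpl15, -0.0926 to 0.47 for Rpl22, -0.0367 to 1.01 for Rpl34, -0.46 to 0.55 for Rpl41, -0.0410 to 0.15 for Rps15a and -0.24 to 1.11 for Rps24. With overlapping rows summed Rpl26 was at 0.0524 and Rpl30 at 0.40. At an equal median of the 77 genes Rpl15 was at -0.0837, Rpl41 at -0.0773 and Rps15a at -0.0651, and Rpl41 was at -0.27 after quantile normalization. Beyond these constructions the cause was not tested. All 77 genes had status OK, so the restriction to that status changed nothing.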

Other observations

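Small nucleolar RNA genes lie inside 23 of the 77 ribosomal protein genes, with 33 rows of their own, of which 15 were listed at 0 in at least 1 tumor and 5 in every tumor. Inside Rps12, Snord100 was at 786, 158, 326 and 614 FPKM and Snora33 at 153, 23.4, 13.3 and 180 FPKM in tumors 26043, 26044, 26048 and 26050, so the tumors were not in the order of Rps12 itself. PolyA selection and the length correction both bear on such short RNAs, and neither was tested. A row named Gm9846, which covers 99.9% of the Rps27 interval, was at 119, 14.8, 0.912 and 1.83 FPKM in the same order, beside 3213 to 5415 FPKM of Rps27 itself. The references used here have no entry of that name, so it was not among the rows summed above. These rows were chosen after their values were seen.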
